A study of Mus musculus with 12 samples.

Results

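The oligonucleotides described here carry 1 changed arm of a dimeric homeodomain site in an otherwise unmodified candidate enhancer sequence. They were taken by name from the table of designed sequences, as every element in which only the first or only the second arm of such a site was altered. This gave 461 of 14987 elements, 230 with arm 1 changed and 231 with arm 2 changed, in 231 sites of 210 genomic regions. Both arms were altered one at a time in 230 sites; of the remaining site only the change of arm 2 is analysed here. Of the regions, 189 held 1 dimeric site and 21 held 2. Each changed element was set against the unmodified element of its own region, called its parent here, and the 2 changed elements of a site were set against each other. Because both arms of a site share a parent, its error enters both of their effects, but it does not enter the difference between the arms.

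Homeodomain transcription factors read short AT-rich sequences, and the residue at one position of the recognition helix sets which bases they prefer after the TAAT core. Factors with a lysine there (the K50 type) prefer TAATCC, whereas those with a glutamine (the Q50 type) prefer TAATTA and its relatives. In photoreceptors the K50 factors Crx and Otx2 are central to the expression of rod and cone genes. Several homeodomain proteins can also occupy a pair of inverted core sequences side by side, and such a pair is what a dimeric site is meant to hold.

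In this massively parallel reporter assay (CRE-seq), elements of 100 bp stood upstream of either the rhodopsin promoter (pRho) or the Crx promoter (pCrx) in front of DsRed, and each was read through its own barcodes of 13 bp in the transcript. Both groups used whole retinas of wild-type CD1 mice at postnatal day 0, which received 30 micrograms of the library plasmids together with 30 micrograms of CAG-GFP by electroporation and were cultured for 8 days; they differed only in the promoter. Each promoter had 3 replicates, a replicate being a pool of 5 retinas from which both cDNA and DNA were sequenced, which gave 12 libraries. An explant contains all retinal cell types, so the activities are averages over the electroporated cells, and a change in the cells that express the reporter cannot be told apart from a change in expression per cell. The libraries held 24726849 to 36500857 counts. Of the changed elements, 153 had 6 barcodes and 308 had 7, 3074 barcodes in all, with a median of 1101 to 2300 counts per element and library and a lowest count of 22 in DNA and 4 in cDNA.

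Activity is the log2 ratio of cDNA to DNA counts of an element, each with 1 count added, after scaling every library by its TMM-adjusted size; 0 lies near the activity of a typical element, not that of the promoter alone. An effect is the activity of the changed element minus that of its parent, in log2 units. It was tested as an interaction in edgeR's quasi-likelihood model, with p-values adjusted over 13717 modified elements, and "fell" and "rose" mean an adjusted p under 0.05. Differences between arms were adjusted over 1336 pairs of single-site changes that share an element. Since 1 barcode can carry an element's own bias into all 3 replicates, the main counts of calls are followed by those of a stricter test in which barcodes are the units (limma on log2 ratios per barcode).

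All sites shared 1 layout. The changed bases of a site were always 6 bp apart, each in a core of 4 bases, with a spacer of 3 bases between the cores. Arm 1 lies on the strand shown and its change replaces A by C; arm 2 lies on the opposite strand, so that ATTA is its TAAT, and its change replaces T by G. A token such as A52C names the unmodified base, its position in the element, whose first base is 1, and the new base. On its own strand, an arm is written with its core and the next 2 bases, such as TAATCC; those next bases lie in the spacer shared with the other arm, so CC cannot follow both cores. The example with the widest difference between arms on pRho is shown first, as the unmodified site, with arm 1 changed and with arm 2 changed; capitals mark both cores in the first line and the changed base in the others.
chr15:102522931-102523130, unmodified: tcttcAAATccaATTAtcgaa
chr15:102522931-102523130, A52C: tcttcaaCtccaattatcgaa
chr15:102522931-102523130, T58G: tcttcaaatccaaGtatcgaa

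The sites below are those whose arms differed most or moved opposite ways, shown so that the unequal cores and next bases can be compared. The coordinates (mm9) are those of the 200-bp region for which the files name the element; the build available here was another one, so no gene or annotation was assigned. Capitals mark the cores of arm 1 (left) and arm 2 (right).
chr1:78564112-78564311, A49C and T55G: tgggcTAATctgATTGagcag
chr7:143328467-143328666, A57C and T63G: tcagtAAAGctgCTTAgcctg
chr2:29227779-29227978, A42C and T48G: tcttgGAAGcggCTTAtctgt
chr6:61161485-61161684, A52C and T58G: tcatgGAAGgagATTAtcagg
chr11:107272987-107273186, A85C and T91G: cgttaTAATaggATTAtaatg
chr13:100168874-100169073, A54C and T60G: ggcagGAAGgagATTAaggtg
chr4:54666198-54666397, A45C and T51G: atagaAAAGgggATTAttctg
chr11:79562776-79562975, A28C and T34G: tttgcAAATgggATTAaagta
chr3:126472754-126472953, A81C and T87G: tactcTAATctgATTAgcagc
chr7:90716744-90716943, A23C and T29G: agcggTAAGaaaCTTCtgtgc

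The next sites carried the deepest falls, the highest rises, falls of both arms to a like level, a fall only when both arms were changed, or the widest differences between promoters. They are shown with the same marking, since their cores are of the same kinds as those above.
chr6:30690093-30690292, A58C and T64G: agggcAAAGctgCTTActgga
chr3:96503031-96503230, A36C and T42G: gacaaTAATcagCTTAaggga
chr19:42645922-42646121, A65C and T71G: gtcagTAATctgATTTgtaac
chr9:77383252-77383451, A63C and T69G: acggaTAATcctATTTatcag
chr15:53019906-53020105, A9C and T15G: gtattTAATatgATTAacagc
chr16:90132769-90132968, A61C and T67G: acgtgTAAGtggATTGcaaaa
chr4:147545518-147545717, A56C and T62G: caacaAAAGccaATTAattgc
chr5:137517411-137517610, A25C and T31G: accccCAAGctgATTAagggc
chr1:74905526-74905725, A72C and T78G: tgctaTAATccgATTAgagtt
chr10:97806726-97806925, A79C and T85G: gaggaTAAGaggCTTAtacct
chr7:30182736-30182935, A8C and T14G: cagtcAAATgtgCTTAactca
chr14:70700022-70700221, second site, A80C and T86G: cgtttTAATcatCTTAaaggc
chr14:70700022-70700221, first site, A43C and T49G: ctggcTAAGagtATTAccaag
chr3:65415566-65415765, A64C and T70G: agcagTAATcagATTAaagag

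Changing 1 arm lowered activity more often than it raised it, and on pCrx more so than on pRho. On pRho, 206 of the 461 arms fell (44.7%), against 43.7% of all modified elements, and 118 rose (25.6%), against 16.3%; in either direction this was 324 arms (70.3%, against 60.0%). The falls were thus about as frequent as among all modified elements, and the rises more frequent. On pCrx, 246 fell (53.4%, against 43.4%) and 72 rose (15.6%, against 10.5%), or 318 in all (69.0%, against 53.9%), so calls in both directions were more frequent than the background. Taking barcodes as units, 132 arms fell and 66 rose on pRho (28.6% and 14.3%, against 24.7% and 5.83% of all modified elements), and 196 fell and 48 rose on pCrx (42.5% and 10.4%, against 29.0% and 4.82%). That is 198 arms called on pRho (43.0%, against 30.5%) and 244 on pCrx (52.9%, against 33.8%).

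Over all arms the mean effect (± SD over 3 replicates) was -0.15 ± 0.03 for pRho and -0.40 ± 0.01 for pCrx, beside -0.23 and -0.32 over all modified elements. The lowest and highest single arms were -2.99 and 2.70 for pRho, and -2.95 and 3.63 for pCrx, with an SD among arms of 0.82 and 0.98, many times the median standard error of an effect (0.12 and 0.15). The mean effects of arm 1 and arm 2 were -0.14 ± 0.03 and -0.16 ± 0.03 on pRho. On pCrx they were -0.34 ± 0.01 and -0.46 ± 0.01. Arm 2 was the lower in 3 of 3 replicates on both promoters, by less on pRho. With 3 replicates an exact sign-flip test cannot go below p = 0.25, so no p is given for such means.

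Inactivating a single K50 site that is not part of a dimer is the closest comparison in the library. Of 1264 such changes, 732 fell on pRho (57.9%) and 675 on pCrx (53.4%), and 208 and 126 rose. The mean effect of a single arm lay above that of a monomer site by 0.21 ± 0.02 on pRho (SD over 3 replicates) and by 0.05 ± 0.02 on pCrx, with the same sign in 3 of 3 replicates on each promoter. The regions of these 2 sets of sites are not the same, and their part in this difference was not tested.

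The activity of the parent went with the direction of the effect. On pRho, arms in parents above 0 numbered 210, of which 141 fell and 13 rose (median effect -0.50), whereas of 251 arms in parents at or below 0, 65 fell and 105 rose (median 0.16). On pCrx, 227 of 309 arms in parents above 0 fell and 8 rose (median -0.80), and 19 of 152 in the others fell and 64 rose (median 0.20). Most falls were therefore in active elements and most rises in weak ones. The parent's own measurement enters both the split and the effect, which by itself pulls them in these directions, so the split is a description only.

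The cores differed in depth. TAAG (143 arms) had a mean effect of -0.26 ± 0.02 on pRho and -0.59 ± 0.02 on pCrx (SD over 3 replicates), where 70 and 88 arms fell. TAAT (160 arms) averaged -0.11 ± 0.05 and -0.39 ± 0.03, with 73 and 93 falls, so the canonical core was not the one with the lowest mean. On pRho 49% of TAAG and 45.6% of TAAT arms fell, near the 43.7% of all modified elements. On pCrx 61.5% and 58.1% fell, against 43.4%. With barcodes as units, 47 TAAG and 49 TAAT arms fell on pRho, and 72 of each on pCrx. Parents of TAAG arms were more active than those of TAAT arms, with means of -0.05 against -0.36 on pRho and 0.53 against 0.26 on pCrx. The part of the parents in the order of the cores was not tested. At the 29 sites that pair a TAAT with a TAAG arm on a shared parent, TAAT minus TAAG was -0.02 ± 0.04 on pRho and -0.09 ± 0.04 on pCrx. AAAG (50 arms) averaged -0.31 ± 0.02 on pRho and -0.39 ± 0.04 on pCrx, and AAAT (29 arms) -0.11 ± 0.05 and -0.54 ± 0.01. The means of GAAG, CAAG and GAAT lay nearer to 0 than those of TAAT and TAAG. GAAG (27 arms) averaged -0.04 ± 0.06 and 0.03 ± 0.04, and CAAG (18 arms) -0.09 ± 0.03 and -0.18 ± 0.07. CAAT (24 arms) had the highest mean of any core on pRho, 0.23 ± 0.06, with 10 rises and 7 falls. On pCrx it averaged 0.03 ± 0.14. The parents of CAAT arms had the lowest mean activity of any core on pRho (-0.55), and the part of this in the rises was not tested. GAAT (10 arms) averaged 0.04 ± 0.04 and -0.13 ± 0.11.

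Of the 13 arm sequences of core and next 2 bases that had at least 10 arms, the 3 with the lowest means on pRho ended in AGCT or AGCA, and those ending in AGCT were also the lowest on pCrx. AAAGCT (13 arms) averaged -0.76 ± 0.05 on pRho and -0.95 ± 0.10 on pCrx (SD over 3 replicates), with 10 and 11 falls. TAAGCT (22 arms) averaged -0.45 ± 0.04 and -0.97 ± 0.02, with 12 and 18 falls. The parents of these arms had higher activity on pCrx than the average parent. Their mean was 0.72 for AAAGCT and 0.95 for TAAGCT, beside 0.41 for TAATCC and 0.35 for the parents of all arms, and its part in the depth of the falls was not tested. TAAGCA (14 arms) averaged -0.78 ± 0.03 and -0.57 ± 0.07, with 10 and 8 falls. Falls made up 76.9% and 84.6% of AAAGCT arms, 54.5% and 81.8% of TAAGCT arms, and 71.4% and 57.1% of TAAGCA arms. Over all modified elements they made up 43.7% on pRho and 43.4% on pCrx. With barcodes as units, 9 and 10 AAAGCT, 9 and 17 TAAGCT, and 7 and 5 TAAGCA arms fell. On pRho, too, parents were more active than average, with means of 0.36 for AAAGCT, 0.23 for TAAGCT and -0.01 for TAAGCA. The means there were -0.32 for TAATCC and -0.22 for all arms, and their part in the falls was not tested. TAATCC, the sequence closest to the textbook K50 site, was not among these lowest sequences.

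TAATCC, in 35 arms, averaged -0.17 ± 0.04 on pRho, where 16 fell and 11 rose, and -0.49 ± 0.02 on pCrx, where 23 fell and 5 rose. The falls were 45.7% of these arms on pRho, near the 43.7% of all modified elements. On pCrx they were 65.7%, against 43.4%. In the barcode test 11 fell and 5 rose on pRho, and 19 and 3 on pCrx. TAATCT, the most frequent arm sequence with 46 arms, averaged -0.41 ± 0.07 and -0.57 ± 0.03, with 29 and 25 falls. TAAGCC (29 arms) averaged -0.33 ± 0.02 and -0.73 ± 0.10. TAATCG (11 arms) averaged -0.40 ± 0.11 and -0.59 ± 0.15. The spread within a sequence was wide: TAATCC arms reached from -1.97 to 2.15 on pRho, and on pCrx from -1.92 to 1.92, so the arm sequence alone did not fix the direction.

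The mean of the TAATCA arms lay above 0 on pRho and below 0 on pCrx. Of 17 such arms, 9 rose and 4 fell on pRho (mean 0.40 ± 0.05, SD over 3 replicates), and 3 rose and 11 fell on pCrx (mean -0.32 ± 0.10, median -0.74). In the barcode test 6 rose and 4 fell on pRho, and 3 rose and 9 fell on pCrx. The parents of TAATCA arms had a mean activity of -0.50 on pRho, beside -0.22 for all arms. The part of this in the rises was not tested. TAATAG (12 arms) averaged 0.11 ± 0.06 on pRho and -0.42 ± 0.07 on pCrx. TAAGAG (21 arms) averaged -0.07 ± 0.03 and -0.55 ± 0.02, TAAGAA (10 arms) 0.00 ± 0.04 and -0.55 ± 0.02, and TAAGGA (14 arms) -0.34 ± 0.07 and -0.57 ± 0.07. TAAGTG (11 arms) had means of 0.09 ± 0.05 and -0.04 ± 0.02 that joined arms of both directions: there were 5 falls and 3 rises on pRho. On pCrx there were 6 falls and 4 rises, and the effects reached from -1.24 to 1.72 with a median of -0.44. Without the barcode of highest ratio in each element its mean was 0.18 on pRho and 0.03 on pCrx.

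Of the 21 arms of any core followed by GG, 0 fell and 3 rose on pRho in edgeR, and 0 fell and 2 rose with barcodes as units (1 and 0 were lower at an unadjusted p under 0.05), with effects from -0.22 to 1.29. Of all modified elements 43.7% fell and 16.3% rose there (24.7% and 5.83% in the barcode test). On pCrx 4 of these arms fell and 4 rose (2 and 3 in the barcode test), with effects from -1.17 to 1.24. Among all modified elements 43.4% fell and 10.5% rose on pCrx (29.0% and 4.82% in the barcode test). Falls were thus absent among these 21 arms on pRho. On pCrx they were present, at 19% of the arms, but also below the share over all modified elements. Neither this shortfall nor a difference between promoters was tested for these arms as a class.

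The arms of one site differed from each other at 140 of 230 sites on pRho (60.9%) and at 92 on pCrx (40.0%). Among all pairs of single-site changes of one element the shares were 67.1% and 48.4%, and among pairs of K50 monomer changes 65.6% and 42.2%. The first set holds the 230 arm pairs too, and the difference between these shares was not tested. The median size of the arm difference was 0.33 on pRho and 0.31 on pCrx, with a median standard error of 0.11 and 0.15. On pRho arm 1 was the lower at 69 sites and arm 2 at 71. On pCrx arm 2 was the lower at 63 sites and arm 1 at 29. With barcodes as units the arms differed at 52 sites on pRho (22.6%, against 33.9% of all pairs and 32.8% of K50 monomer pairs) and at 42 of 229 on pCrx (18.3%, against 28.0% and 22.8%), with arm 2 lower at 24 and 29 of them.

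Within a site, the arm with the core TAA was on average the deeper one. TAA began the core of 152 arms 1 and 151 arms 2, of both arms at 72 sites, and of only one arm at 158 sites. At those 158 sites the TAA arm lay below the other arm by a mean of -0.13 ± 0.03 on pRho (SD over 3 replicates) and -0.19 ± 0.05 on pCrx, with the same sign in every replicate. The difference was called with the TAA arm lower at 63 sites and higher at 37 on pRho, and at 50 and 15 on pCrx. In the barcode test these counts were 27 and 13, and 20 and 7.

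The base after the core gave a difference of like size. A C followed the core in 115 arms 1 and 138 arms 2, and at 131 sites in only one arm. The arm with C lay below the other by -0.10 ± 0.03 on pRho (SD over 3 replicates) and by -0.19 ± 0.03 on pCrx; called sites numbered 51 lower and 29 higher on pRho, and 42 and 16 on pCrx (18 and 9, and 26 and 3, with barcodes as units). Where both arms began with TAA, which left 48 sites with C after only one core, no such difference was seen on pRho (0.01 ± 0.02, 13 lower and 14 higher; 3 and 4 in the barcode test). On pCrx it was -0.21 ± 0.04, with 15 lower and 5 higher (11 and 1). The arm with C was arm 2 at 33 of these 48 sites and arm 1 at 15, and arm 2 at 77 of the 131 sites and arm 1 at 54. Over all sites on pCrx, arm 2 was called lower at 63 and arm 1 at 29. The part of the arm number in the difference was not tested.

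CC after the core, as in TAATCC, did not mark the deeper arm on pRho. At the 89 sites with CC after one core, 37 in arm 1 and 52 in arm 2, the CC arm differed from the other by 0.03 ± 0.02 on pRho (SD over 3 replicates), with 27 sites called lower and 26 higher. On pCrx the mean was -0.11 ± 0.00, with 23 lower and 12 higher. The median over these sites was 0.01, and the CC arm lay below the other at 44 of the 89, called or not. Taking barcodes as units, 8 were lower and 9 higher on pRho, and 17 and 2 on pCrx. Sites with TAAT in one arm and TAAG in the other, 29 in number, showed differences of -0.02 ± 0.04 on pRho and -0.09 ± 0.04 on pCrx. At the 24 sites where both cores began with TAA and either both or neither had C after it, the arms still differed at 54.2% of sites on pRho and 29.2% on pCrx, beside 61.7% and 41.3% of the other 206.

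The widest arm difference on pRho was at chr15:102522931-102523130, where the arms went opposite ways. The parent's activity on pRho was -0.45, -0.33 and -0.44 in replicates 1 to 3; with arm 1 changed (A52C, in AAATCC) it was 0.75, 0.65 and 0.60, and with arm 2 changed (T58G, in TAATTG) -1.96, -1.96 and -2.21. The 3 sets of values did not overlap. A52C raised activity 2.11-fold (1.08 ± 0.10, SE, n = 3, edgeR adjusted p = 4.7e-13) and T58G lowered it 3.09-fold (-1.63 ± 0.14, adjusted p = 1.1e-14), a difference between arms of 2.70 ± 0.11 (6.51-fold, adjusted p = 3.4e-28; 7.6e-06 with barcodes as units). On pCrx A52C rose alike (1.07 ± 0.15, edgeR adjusted p = 7.4e-07). T58G was called lower there (-0.48 ± 0.18, edgeR adjusted p = 0.025), but that call did not hold. Without the barcode of highest ratio in each element the effect was -0.07, the adjusted p was 0.064, 0.14 and 0.050 without replicate 1, 2 or 3 in edgeR, and it was 0.99 with barcodes as units. The arm difference on pCrx was 1.55 ± 0.15.

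One arm alone rose at chr11:107272987-107273186, whose cores are both TAAT. On pRho the parent gave -1.29, -1.13 and -1.31, the change A85C in TAATAG 0.43, 0.41 and 0.36, and the change T91G in TAATCC -1.15, -1.25 and -1.38. All 3 values with arm 1 changed lay above the rest, and those with arm 2 changed overlapped the parent's. The effect of A85C was 1.64 ± 0.10 (SE, n = 3, edgeR adjusted p = 1.6e-20) and that of T91G -0.01 ± 0.13. On pCrx neither passed (-0.13 ± 0.12 and 0.09 ± 0.13), and the arm difference changed between promoters by -1.88 (edgeR adjusted p = 4.0e-14).

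At 3 further sites one arm, a TAA arm each time, fell and the other did not. On pCrx at chr13:100168874-100169073 the parent gave 0.91, 0.79 and 0.50, the change A54C in GAAGGA 0.96, 0.48 and 0.79, and T60G in TAATCT -1.39, -1.59 and -1.72. Only the last set stood apart, and the arm difference of 2.32 ± 0.16 was the widest on pCrx (SE, n = 3, edgeR adjusted p = 5.6e-16). On pRho it was 0.41 ± 0.11. At chr6:61161485-61161684, which has the same GAAGGA and TAATCT arms, the order of the promoters was the reverse: T58G changed activity by -1.91 ± 0.13 on pRho and by -0.49 ± 0.13 on pCrx, and A52C by -0.17 ± 0.11, which did not pass, and 0.31 ± 0.12. At chr4:54666198-54666397 the change T51G in TAATCC took pCrx activity from 1.67, 1.86 and 1.69 to -0.05, -0.49 and -0.03, whereas A45C in AAAGGG left it at 1.63, 1.62 and 1.39. The effects there were -1.91 ± 0.16 for T51G (edgeR adjusted p = 8.6e-11) and -0.19 ± 0.13 for A45C (adjusted p = 0.21).

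Sites that shared a pair of arm sequences did not share their values. The arms AAAGCT and TAAGCA occur at both chr6:30690093-30690292 and chr7:143328467-143328666. At the first, T64G gave the deepest fall of any single arm on pRho, from 1.00, 0.85 and 0.87 in the parent to -1.85, -2.40 and -1.96 (-2.99 ± 0.12, SE, n = 3, 7.94-fold, edgeR adjusted p = 9.7e-28). A58C in the same site fell by less on pRho (-1.34 ± 0.10), and on pCrx the effects were -1.999 ± 0.14 for T64G and -1.43 ± 0.14 for A58C. At the second site, whose parent was already weak on pRho at -2.62, -2.02 and -1.96, T63G gave -4.15, -3.91 and -3.51 (-1.67 ± 0.19, edgeR adjusted p = 6.7e-11). A57C gave -1.85, -1.88 and -1.97 there and did not pass (0.29 ± 0.16). In both sites the TAAGCA arm was the deeper one on pRho.

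Arms that moved opposite ways, one called lower and the other higher, were found at 8 of 230 sites on pRho (3.48%) and 4 on pCrx (1.74%), against 6.36% and 2.99% of all pairs of single-site changes. In the barcode test they were found at 2 and 1 sites, against 1.27% and 0.599% of all pairs. At chr2:29227779-29227978 the parent on pRho gave -1.60, -1.28 and -1.30, A42C in GAAGCG -2.38, -2.31 and -2.39, and T48G in TAAGCC -0.33, -0.62 and -0.48. Here the TAA arm was the one that rose, and the sets did not overlap. The effects were -0.97 ± 0.13 and 0.91 ± 0.13 (SE, n = 3, edgeR adjusted p = 2.1e-09 and 1.2e-08; 0.011 and 0.072 with barcodes as units), and on pCrx neither arm passed. At chr11:79562776-79562975 on pCrx, where the parent gave 0.78, 0.73 and 0.71, A28C in AAATGG gave 1.34, 1.55 and 1.50 and T34G in TAATCC -0.34, 0.15 and -0.13 (effects 0.72 ± 0.12 and -0.85 ± 0.14). On pRho both arms of that site lay above the parent (1.29 ± 0.11 and 0.84 ± 0.12).

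The other named opposite pairs were less firm. At chr1:78564112-78564311 on pRho, A49C in TAATCT gave -1.01, -0.58 and -0.92 beside -3.08, -2.30 and -2.64 in the parent, and T55G in CAATCA -3.51, -2.88 and -3.005. Those of arm 2 overlapped the parent's. The effects were 1.81 ± 0.16 and -0.47 ± 0.17 (SE, n = 3, edgeR adjusted p = 7.0e-15 and 0.017), but with barcodes as units neither passed (adjusted p = 0.13 and 0.60), nor did the arm difference (0.085). T55G also missed the threshold without replicate 3 (edgeR adjusted p = 0.064) and in the DESeq2 Wald test (0.12). These values are all for pRho. On pCrx the arm difference of this site was among the 6 widest, and it passed with barcodes as units too. At chr7:90716744-90716943 the change A23C in TAAGAA was lower and T29G in GAAGTT higher than the parent on pCrx (-0.34 ± 0.12 and 0.90 ± 0.12) and on pRho (-0.29 ± 0.10 and 0.58 ± 0.09); the arm difference passed in both tests on both promoters, and the fall of A23C in edgeR only, where it did not pass on pCrx without replicate 1 or 3 (adjusted p = 0.15 and 0.072).

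At other sites both arms fell and the difference between them did not pass. At chr3:96503031-96503230 on pCrx the parent gave 1.59, 1.89 and 1.67, A36C in TAATCA -1.65, -1.14 and -0.997, and T42G in TAAGCT -0.89, -1.11 and -1.05. The values of the arms overlapped each other and lay far below the parent's. A36C was the deepest fall on pCrx (-2.95 ± 0.19, SE, n = 3, 7.73-fold, edgeR adjusted p = 6.1e-13), T42G had an effect of -2.74 ± 0.14, and the difference between them was -0.22 ± 0.19 (adjusted p = 0.36). On pRho the same arms were unequal, at -1.34 ± 0.12 and -2.29 ± 0.11.

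At chr19:42645922-42646121 the parent's pCrx activity of 2.14, 2.33 and 1.91 became -0.82, -0.63 and -0.31 with A65C in TAATCT and -0.79, -0.90 and -0.53 with T71G in AAATCA. The effects, -2.70 ± 0.15 and -2.86 ± 0.14 (SE, n = 3), did not differ beyond their error (0.15 ± 0.15, edgeR adjusted p = 0.41), although the second arm has no TAA core. At chr1:74905526-74905725, with TAATCC and TAATCG arms, pRho activity went from 0.08, 0.04 and 0.04 to -1.67, -1.93 and -1.54 with A72C and to -1.58, -1.81 and -1.39 with T78G (difference -0.13 ± 0.13). At chr10:97806726-97806925 the pRho effects were -1.68 ± 0.11 for A79C in TAAGAG and -1.66 ± 0.10 for T85G in TAAGCC (difference -0.01 ± 0.12). With standard errors of 0.12 to 0.15, small differences between these arms would not have been seen.

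At chr9:22280903-22281102 the pCrx effects were -2.39 ± 0.14 for A85C in TAAGCT and -2.59 ± 0.14 for T91G in AAATCA (SE, n = 3), a difference of 0.20 ± 0.15. At chr10:76501618-76501817 the pRho effects were -1.19 ± 0.09 for A74C in TAATGA and -1.29 ± 0.10 for T80G in TAAGCT, a difference of 0.10 ± 0.10. Unlike these, the arms of chr5:38614023-38614222 both fell on pRho but to different depths, A25C in TAATCT to -1.53, -1.55 and -1.60 and T31G in TAAGGA to -0.84, -0.68 and -1.003, from 0.46, 0.56 and 0.45 in the parent.

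At chr9:77383252-77383451 the difference between the arms changed with the promoter. On pRho the parent gave 0.89, 0.93 and 0.99, A63C in TAATCC -1.004, -0.86 and -1.22, and T69G in AAATAG 0.12, -0.02 and 0.02, so the TAATCC arm was deeper (-1.97 ± 0.12 against -0.90 ± 0.12, SE, n = 3). On pCrx the effects were -0.54 ± 0.13 and -0.97 ± 0.15, a difference that did not pass (0.42 ± 0.18, edgeR adjusted p = 0.054). The change of the arm difference between promoters passed (1.500, edgeR adjusted p = 1.4e-07).

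The highest rises were in parents of very low activity. At chr15:53019906-53020105 the parent gave -3.20, -3.47 and -2.68 on pCrx, A9C in TAATAT 0.21, 0.35 and 0.40, and T15G in TAATCA 0.78, 0.65 and 0.28. Either single change thus brought the element to or above the library's typical level. The effect of T15G was 3.63 ± 0.23 (SE, n = 3, 12.4-fold, edgeR adjusted p = 4.8e-13) and that of A9C 3.37 ± 0.22, and on pRho they were 2.70 ± 0.13 and 2.25 ± 0.13. At chr4:147545518-147545717 pCrx activity rose from -2.62, -2.29 and -2.31 to 0.47, 0.48 and 0.27 with A56C in AAAGCC and to 0.62, 0.49 and 0.41 with T62G in TAATTG (2.81 ± 0.14 and 2.91 ± 0.13). On pRho these arms rose by less (0.90 ± 0.14 and 1.14 ± 0.13).

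At chr5:137517411-137517610 the rises were unequal on both promoters. T31G in TAATCA took pCrx activity from -1.75, -2.15 and -1.89 to 1.02, 0.88 and 0.78 (2.82 ± 0.15, SE, n = 3), and A25C in CAAGCT took it to -0.11, 0.22 and 0.15 (2.02 ± 0.14); the difference was -0.80 ± 0.14 on pCrx and -1.001 ± 0.10 on pRho. At chr16:90132769-90132968 the arms rose alike on pRho, A61C in TAAGTG by 2.15 ± 0.25 and T67G in CAATCC by 2.28 ± 0.25. The barcode test gave T67G an adjusted p of 0.054. The parent of that site varied more than most on pCrx, at -2.56, -3.49 and -1.54.

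The element with both arms changed was then set against each single arm, a comparison added after the single-arm results were seen. On pRho it was lower than arm 1 alone at 71 of 230 sites and higher at 45, and lower than arm 2 alone at 68 and higher at 43; over all pairs so tested, 62.3% passed in either direction. On pCrx it was lower than arm 1 alone at 58 sites and higher at 18, and lower than arm 2 alone at 46 and higher at 26, against 44.0% of all pairs. The second change thus made no called difference at 114 and 119 sites on pRho and at 154 and 158 on pCrx, and a called one at 116 and 111 and at 76 and 72. The shares of all pairs are over 1796 pairs in edgeR, which hold these 460 comparisons too. How the counts differ from those shares was not tested. In the barcode test 43 and 35 sites passed on pRho and 31 and 25 on pCrx, against 28.8% and 23.4% of all pairs.

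At chr7:30182736-30182935 neither arm alone passed and both together fell. On pRho the parent gave 1.07, 0.90 and 1.15, A8C in AAATGT 0.78, 1.00 and 0.92, T14G in TAAGCA 0.93, 1.00 and 1.22, and the element with both changes 0.17, -0.04 and 0.15. The single arms overlapped the parent and only the double change stood apart, at -0.95 ± 0.10 (SE, n = 3, edgeR adjusted p = 4.0e-12; 6.6e-05 with barcodes as units). Against the single arms it was lower with adjusted p = 1.6e-11 and 4.5e-12 in edgeR. On pCrx it was also lower than the parent (-0.73 ± 0.16, edgeR adjusted p = 0.00028; 0.25 with barcodes as units). At chr4:55229148-55229347, with TAAGTG and GAATGC arms, A76C (-0.03 ± 0.17) and T82G (-0.39 ± 0.17) did not pass on pCrx, and both changes together fell to -0.90 ± 0.17 (edgeR adjusted p = 5.7e-05; 0.0038 with barcodes as units). Further double changes of this kind were smaller and less firm. They were -0.58 ± 0.13 on pCrx at chr11:107272987-107273186 (0.17 with barcodes as units), and on pRho -0.32 ± 0.13 at chr14:18264387-18264586 and -0.31 ± 0.10 at chr12:77946018-77946217. The last 2 did not pass without replicate 1 (edgeR adjusted p = 0.16 and 0.077), nor the first of these without replicate 3 (0.29). Both also missed the threshold with barcodes as units (adjusted p = 0.18 and 0.090).

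At chr6:30690093-30690292 the double change did not differ from its deeper arm beyond the error. On pRho it gave -1.89, -2.26 and -2.08, beside -1.85, -2.40 and -1.96 for T64G alone (difference 0.02 ± 0.15, SE, edgeR adjusted p = 0.92). At chr3:126472754-126472953 on pCrx it went further than either arm. The parent gave 2.06, 2.22 and 1.80, A81C in TAATCT -0.07, -0.47 and -0.47, T87G in TAATCA 1.20, 1.17 and 0.94, and both -0.97, -0.76 and -1.04 (edgeR adjusted p = 0.0015 against arm 1 and 1.1e-14 against arm 2). At chr13:100168874-100169073 on pCrx activity with both changes lay between that of T60G alone and the parent. The double change gave -0.28, -0.02 and -0.16 there, above T60G alone (-1.39, -1.59 and -1.72; edgeR adjusted p = 1.4e-07).

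The effect of a single arm was often unlike on the promoters, and more often deeper on pCrx. The effect on pCrx differed from that on pRho in 248 of 461 arms (53.8%), against 38.7% of all modified elements, and it was lower on pCrx in 167 (36.2%, against 23.7%) and higher in 81 (17.6%, against 15.1%). In the barcode test 134 of 456 passed (29.4%, against 15.0%), 100 lower on pCrx (21.9%, against 11.0%) and 34 higher (7.46%, against 4.03%). The median difference, pCrx minus pRho, was -0.16, and -0.08 over all modified elements. Differences between the arms of a site changed with the promoter at 92 of 230 sites (40.0%, against 41.0% of all pairs; 22 of 228 with barcodes as units, against 12.9%).

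There were 41 arms that rose on pRho and fell on pCrx (8.89%, against 3.43% of all modified elements), and 9 that did the reverse (1.95%, against 1.23%). With barcodes as units in limma there were 17 and 0, against 0.912% and 0.0876% (also 0 of the second kind at an unadjusted p under 0.05 on both promoters). The widest promoter differences were all of the first kind. At chr14:70700022-70700221 the parent's activity was -0.96, -1.01 and -0.80 on pRho but 1.44, 1.68 and 1.42 on pCrx. A80C in TAATCA, in the second site of that element, brought both toward the middle, to 0.53, 0.39 and 0.46 on pRho and 0.22, 0.09 and -0.16 on pCrx. The effects were 1.39 ± 0.09 and -1.46 ± 0.13 (SE, n = 3), a promoter difference of -2.85 (edgeR adjusted p = 3.9e-20; 4.4e-06 with barcodes as units). T49G in TAATAC, in the first site of the same element, did much the same (1.25 ± 0.10 and -1.35 ± 0.12).

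The 2 sites of that element share a parent, so the parent's values enter all 4 of its single-arm effects. At chr3:65415566-65415765, where the dimer is the only named homeodomain site, the parent gave -1.70, -1.45 and -1.82 on pRho and 1.21, 1.36 and 0.99 on pCrx. A64C in TAATCA moved these to -0.42, -0.45 and -0.31 and to 0.05, -0.08 and -0.30, and T70G in TAATCT to -0.93, -0.94 and -1.02 and to -0.67, -0.62 and -0.59. The promoter difference was -2.55 for A64C and -2.51 for T70G (edgeR adjusted p = 1.2e-15 and 7.3e-16). The parent's gap between promoters was thus much narrower after either change.

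The place of the arm in the element went with its mean effect on pCrx. Arms at positions 1 to 25 (75 arms) averaged 0.06 ± 0.03 on pCrx (SD over 3 replicates), those at 26 to 50 (128 arms) -0.32 ± 0.01, those at 51 to 75 (179 arms) -0.53 ± 0.01, and those at 76 to 100 (79 arms) -0.68 ± 0.06. On pRho the means were 0.07 ± 0.02, -0.07 ± 0.04, -0.28 ± 0.02 and -0.19 ± 0.04, so the last step did not continue there. The mean activity of the parents on pCrx rose over the same bins, at 0.12, 0.27, 0.44 and 0.51, and its part in the falls was not tested. The sources used here do not give which end of the element lies next to the promoter. Of the arms at positions 76 to 100, 53 fell (67.1%) and 8 rose on pCrx, and of those at 1 to 25, 27 fell (36%) and 18 rose. Over all modified elements 43.4% fell on pCrx. With barcodes as units, 44 fell and 4 rose at 76 to 100, and 18 fell and 12 rose at 1 to 25. At every site the changed base of arm 2 lies 6 bp after that of arm 1, and whether this bears on the lower mean of arm 2 on pCrx was not tested.

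In 58 of the 210 regions the dimer was the only named homeodomain site, and in 136 the element also held K50 monomer sites. The 116 arms of the former averaged -0.34 ± 0.03 on pRho (SD over 3 replicates; 63 fell and 18 rose) and the other 345 arms -0.09 ± 0.03 (143 fell and 100 rose). On pCrx the means were -0.42 ± 0.05 and -0.39 ± 0.01, which differ by less than the spread over replicates. The rises on pRho were thus mostly in elements with further homeodomain sites, at 29.0% of their arms, beside 15.5% where the dimer stood alone. The site of which only arm 2 is analysed here, at chr11:106859668-106859867, had an effect of -0.36 ± 0.15 for T48G on pRho (edgeR adjusted p = 0.034) and of -0.13 ± 0.18 on pCrx, where the replicates went different ways.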

How the data were processed

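Raw read counts per barcode, as the authors deposited them, were used for 12 libraries of the mouse retina assay; no source used here names the counting tool, and the build is mm9 per the submitters' processing notes. The authors' deposited expression table, in log2 of cDNA over DNA, served only as an alternative, and the deposited table of log2 fold changes with p-values was not used for any result. Each barcode was assigned to its element through the deposited table of designed sequences, and 0 count columns were left unmapped. The labels mention PCR of 21 and 6 cycles and no molecular identifiers, so reads are not independent molecules.

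Counts were summed per element; all 14987 elements had at least 10 DNA counts in every DNA library. edgeR 4.0.16 (R 4.3.3, TMM over all elements) tested changed against unmodified elements as an interaction with cDNA against DNA over the 6 libraries of a promoter, and the promoter difference over all 12. Class means average replicate values. limma 3.58.1 tested log2 ratios per barcode, averaged over replicates, for barcodes with at least 10 counts in each DNA library. DESeq2 1.42.0 was an alternative, with other scalings, a barcode filter, the removal of the highest barcode, each replicate left out, and a replicate block. Same-numbered cDNA and DNA come from 1 pool of retinas, per the labels; across elements their deviations from the group means correlated at -0.04 to 0.05. The scripts were tested on simulated data.

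The members, sequence classes and comparisons were chosen with earlier results of these data known. Sites were named by rule, among calls with the same direction in 3 of 3 replicates and leaving out chromosome 18: per promoter the 6 widest arm differences, the 4 deepest falls and 4 highest rises, the 3 widest opposite pairs, the 3 deepest sites with both arms lower and no called difference, and the 3 deepest falls of both arms together where neither arm passed, plus the 4 widest promoter differences.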

Additional observations from a re-analysis of the deposited data

Results flagged for a closer look

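Effects that differed between promoters were counted for 248 single arms and for 92 arm differences, by the test of the difference itself. In the values below each number is an effect on pCrx minus that on pRho, from edgeR with an adjusted p under 0.05. Among single arms, those lower on pCrx were A80C (-2.85) and T49G (-2.59) at chr14:70700022-70700221, A64C (-2.55) and T70G (-2.51) at chr3:65415566-65415765, A36C (-1.61) and T42G (-0.45) at chr3:96503031-96503230, and A65C (-0.997) and T71G (-1.48) at chr19:42645922-42646121. Higher on pCrx were A9C (1.12) and T15G (0.93) at chr15:53019906-53020105, T62G (1.77) at chr4:147545518-147545717, T31G (0.82) at chr5:137517411-137517610, T64G (0.99) at chr6:30690093-30690292, A63C (1.43) at chr9:77383252-77383451 and A25C (0.69) at chr5:38614023-38614222.

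For the difference arm 1 minus arm 2, the change from pRho to pCrx was -1.16 at chr15:102522931-102523130, -1.05 at chr7:143328467-143328666, -0.93 at chr6:61161485-61161684, -1.88 at chr11:107272987-107273186, -0.70 at chr3:126472754-126472953 and -0.37 at chr7:90716744-90716943. It was 1.68 at chr2:29227779-29227978, 1.92 at chr13:100168874-100169073, 0.82 at chr4:54666198-54666397 and 1.12 at chr11:79562776-79562975. With barcodes as units, 9 of the 15 single arms and 5 of the 10 arm differences given here passed.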

How the results depend on the processing

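Normalization by DESeq2 size factors or total counts, the DESeq2 Wald test, the barcode filter and the replicate block left every count of calls within 1.5 times its main value; with the replicate block 207 arms fell and 119 rose on pRho, 246 fell and 69 rose on pCrx, and arms differed at 141 and 89 sites. The filter on DNA counts removed nothing. With barcodes as units, counts fell to 132 falls and 66 rises on pRho, to 52 (28 with arm 1 and 24 with arm 2 lower) and 42 (13 and 29) sites with an arm difference on pRho and pCrx, to 134 and 22 promoter differences of arms and of arm differences, and to 43, 35, 31 and 25 sites where both arms differed from arm 1 or arm 2 on pRho and then pCrx. The 196 falls and 48 rises on pCrx stayed within 1.5 times. The mean effect on pCrx was -0.38 without the barcode of highest ratio and -0.42 in the authors' deposited values, which cover 427 of the 461 arms; the cause was not tested. Leaving out 1 replicate at a time gave 185 to 199 falls and 96 to 111 rises on pRho, 223 to 232 and 61 to 65 on pCrx, and 109 to 131 and 72 to 81 sites with an arm difference. None of the 59 values of named arms and sites reversed in any of 649 alternatives, and 22 alternatives no longer passed, 11 of them with barcodes as units. Those without the DNA filter, 59 in number, equal the main values, since the filter removed nothing. Naming required the same direction in 3 of 3 replicates, so a reversal on leaving out 1 replicate was unlikely beforehand. The lack of reversals is therefore weak evidence. Depth limited little (median standard errors of 0.12 and 0.15), but 6 or 7 barcodes per element did: with barcodes as units the median standard error was 0.22 on pRho and 0.23 on pCrx. Replicates are pools of retinas given the same plasmid library, so a bias of an element's barcodes recurs in all 3.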
